A study of Mus musculus with 2 samples.

Results

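Broad Tet3 peaks were taken as the peaks of the Tet3 chromatin immunoprecipitation and sequencing (ChIP-seq) list that are wider than 1000 bp and do not lie on chromosome 7. Of the 3412 deposited Tet3 peaks, 3096 lay outside chromosome 7, and 812 of these were broad. The other 2284, of 1000 bp or less, are called narrow here and served as the comparison. Peak width chose the broad peaks, so widths are given only as a description, also where they are set out by chromosome. The comparisons concern position, spacing and neighbours, which the rule did not use. Spacing at the shortest range is still tied to width, since close sites can be called as 1 wide peak or as separate narrow ones. The cells were neural progenitor cells differentiated from mouse embryonic stem cells of C57BL/6 background. One library came from chromatin precipitated with anti-Tet3 antibody, and the other, Input, from sheared chromatin to which no antibody was added. The Input library has its own deposited list of 347 peaks, 335 of them outside chromosome 7. The labels name no other treatment, genotype or time, and each group has 1 library, so every difference below describes peaks of 1 library, has no replicate check and carries no p-value. Intervals are exact 95% intervals over peaks (Clopper-Pearson for shares, order statistics for medians) and cover counting error only. For a count of 0 the limit given is 3 counts, a one-sided bound below the upper end of the exact interval. None of these allow for shared surroundings, since neighbouring peaks are not independent and the read depth behind the lists is unknown.

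Tet3 is a dioxygenase of the TET family. These enzymes oxidise methylated cytosine in DNA to hydroxymethylcytosine and further products, a step on the way to removing the methyl group. Tet3 is expressed in neural cells, and one of its isoforms carries a CXXC zinc finger, a domain that binds CpG-rich DNA. In ChIP-seq a factor held at a single short element gives a narrow pile of reads, whereas occupancy spread along a stretch of chromatin, or several sites side by side, gives a wide one. A peak caller reports the joined outline, so a wide peak by itself does not say whether either of these or something else lies beneath it. The series as a whole deals with how TET proteins bear on neuroectoderm against cardiac mesoderm fate, and this experiment mapped Tet3 binding in neural progenitors.

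Broad peaks formed a shoulder on the upper side of the width distribution. In steps of 100 bp, the number of Tet3 peaks went down from 553 between 500 and 600 bp to 141 between 1000 and 1100 bp. It then stayed nearly level, with 119, 107, 115 and 105 peaks in the next 4 steps, and dropped to 58 between 1500 and 1600 bp. Without chromosome 8 the shoulder was the same in form, with 106, 93, 100 and 88 peaks and then 48. The median width of broad peaks width was 1336 bp (1310 to 1360), with quartiles of 1152 and 1521 bp, against a median of 653.5 bp (645 to 664) for narrow peaks. Of the broad peaks, 225 exceeded 1500 bp, 45 exceeded 2000 bp and 8 exceeded 3000 bp. The threshold did not fall in a gap: 70 peaks lay within 50 bp above it and 88 within 50 bp below. The 5 peaks just above it were 1001 to 1003 bp wide, and the 5 just below were at least 996 bp wide. Among those just above were the peak on chromosome 2 at 25672298 to 25673298 and the one on chromosome 8 at 72775997 to 72776998. Those just below included chromosome 19 at 45110834 to 45111832 and chromosome 11 at 103194053 to 103195050. Although they were 26.2% of the peaks (24.7 to 27.8), broad peaks made up 42.9% of the bases under Tet3 peaks outside chromosome 7, or 1148 kb against 1527 kb for narrow peaks. In the whole Input list, chromosome 7 included, 2 of 347 peaks were wider than 1000 bp, and the median Input width outside chromosome 7 was 568 bp.

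**Figure D1:**
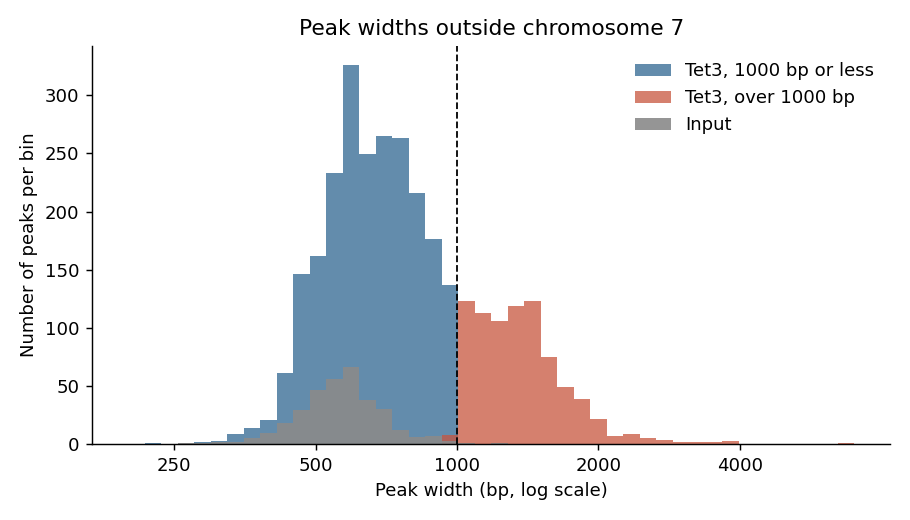
Number of peaks (vertical axis) by peak width in bp (horizontal axis, log scale) for narrow Tet3 peaks, broad Tet3 peaks and Input peaks outside chromosome 7, with the dashed line at 1000 bp. The Tet3 counts fall towards the line and form a shoulder beyond it, up to about 1500 bp, and the Input widths, with a median of 568 bp, end at 1192 bp.

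The caller's score, which is the authors' own value and is not defined in the files, went with width and is given only as a description. It had a median of 85.6 (82.5 to 88.8) in broad peaks and 61.2 (60.2 to 62.0) in narrow ones. On all 18 autosomes considered the broad median was the higher one. The Spearman correlation between width and score was 0.22 among broad peaks (812 peaks of 1 library) and 0.35 among narrow ones (2284 peaks). Broad scores had quartiles of 66.5 and 116 and ranged from 50.09 to 1552.04, the highest being that of the widest peak, on chromosome 17. Narrow scores ranged from 50 to 300.57. No peak was chosen or left out by score.

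The widest peak lay on chromosome 17 at 39979475 to 39985938 and measured 6464 bp. It stood alone, with 1 other Tet3 peak within 2.5 Mb and its nearest neighbour 946 kb away. The next was 3973 bp wide, on chromosome 8 at 86609924 to 86613896, and had another broad peak only 0.359 kb from its edge. After these came peaks of 3884 bp and 3814 bp on chromosome 8, at 125950129 to 125954012 and 113409314 to 113413127. The first of this pair had 44 other Tet3 peaks within 2.5 Mb and the second 14. Chromosome 9 contributed a peak of 3622 bp at 119425640 to 119429261, and chromosome 1 one of 3303 bp at 90108509 to 90111811. The remaining ones of the 10 widest were all on chromosome 8. They measured 3514 bp (122135511 to 122139024), 3159 bp (111315896 to 111319054), 2989 bp (123315524 to 123318512) and 2925 bp (87089910 to 87092834). In all, 7 of the 10 widest were on chromosome 8, and 9 of the 10 had another Tet3 peak within 150 kb, the peak on chromosome 17 being the exception. Gene annotation and sequence of the build of these lists, mm9, were not used here, so neither the genes nor the repeats under these peaks are named.

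Outside chromosomes 8 and 17 the widest peak of a chromosome was usually between about 1.6 and 2.8 kb. The largest of these after the peaks named above was on chromosome 4, at 136494675 to 136497501, with 2827 bp. Its nearest neighbour, also broad, was 3.196 kb away. Chromosome 15 had one of 2688 bp at 99062567 to 99065254 and chromosome 11 one of 2448 bp at 117621316 to 117623763. On chromosome 13 the widest reached 2436 bp at 120277441 to 120279876, with only 2 other peaks within 2.5 Mb. That of chromosome 10, 2363 bp at 80350734 to 80353096, had 57. The surroundings of the widest peaks therefore ranged from nearly empty to crowded. Chromosome 18 had one of 2378 bp and chromosomes 2 and 16 had ones of 2044 bp, at 164238801 to 164240844 and 18224611 to 18226654. The lowest maxima were 1636 bp on chromosome 14 (56330600 to 56332235), 1697 bp on chromosome 6 (3132400 to 3134096), 1725 bp on chromosome 19 (5052126 to 5053850) and 1749 bp on chromosome 3 (89564109 to 89565857). Chromosome 12 reached 1890 bp and chromosome 5 reached 1963 bp.

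Chromosome 8 stood apart in its share of broad peaks. There 147 of 345 Tet3 peaks were broad, 42.6% (37.3 to 48.0), against 665 of 2736 or 24.3% (22.7 to 26.0) on the 17 other autosomes together. Single autosomes other than 8 ranged from 12.1% to 31.4%, with a median of 24.9%, so the interval of chromosome 8 lay above the value of each of them. Chromosome 8 held 18.1% of all broad peaks but 8.67% of narrow ones. Its broad peaks numbered 1.15 per Mb, against a median of 0.310 and a highest value of 0.533 on the others. The Input list showed an excess on this chromosome as well: 122 Input peaks, 0.958 per Mb, or 36.4% of Input peaks outside chromosome 7, with at most 0.146 per Mb on the other chromosomes considered. The part of this excess in the width of Tet3 peaks was not tested.

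As a description, broad peaks measured 1476 bp (median, 1409 to 1599) on chromosome 8 and 1311 bp (1278 to 1338) on the other autosomes, while narrow peaks were at 663 bp (624 to 700) and 652 bp (643 to 664). The share of chromosome 8 went up with width. It was 11.5% of peaks over 1000 and up to 1200 bp, 14.1% of those up to 1500 bp, 26.1% up to 2000 bp and 42.9% up to 2500 bp. Of the 17 peaks over 2500 bp, 12 were on chromosome 8, a share of 70.6%. The median score of all 147 broad peaks of chromosome 8 was 87.2, and that of broad peaks on the other autosomes was 85.3. Within the chromosome the broad share was uneven. Over 10 equal segments from the first to the last Tet3 peak, it was 55% in segment 6 (33 of 60 peaks), 48.9% in segment 7 (22 of 45) and 53.9% in segment 10 (41 of 76). In segment 5 it was 6.67%, or 1 of 15 peaks, and the other segments lay between 26.3% and 41.4%. The segments with a high broad share were thus also those with most Tet3 peaks.

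Among the other autosomes the spread was smaller. The highest shares were 31.4% (24.1 to 39.4) on chromosome 17, 30.8% (22.1 to 40.6) on chromosome 13 and 30.3% (23.1 to 38.2) on chromosome 15. The lowest were 12.1% (6.19 to 20.6) on chromosome 16, 16.9% (11.4 to 23.6) on chromosome 6 and 18.1% (12.1 to 25.3) on chromosome 3. For these lowest 3 the interval lay below the share of 26.2% over all chromosomes, and chromosome 8 was the only autosome whose interval lay above it. Chromosomes 4, 9, 11, 10, 5, 14, 18, 19, 2, 12 and 1 lay between 20% and 26.9% and could not be ranked against each other within their intervals. By number per Mb, chromosome 19 (0.533), chromosome 17 (0.528) and chromosome 11 (0.502) followed chromosome 8, and chromosome 16 came last of the autosomes with 0.119. Across the 18 autosomes the densities of broad and narrow peaks had a Spearman correlation of 0.87. The broad share itself went with the density of all Tet3 peaks less closely, at 0.57, or 0.49 without chromosome 8. No p is given, since the values all come from 1 library.

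**Figure D2:**
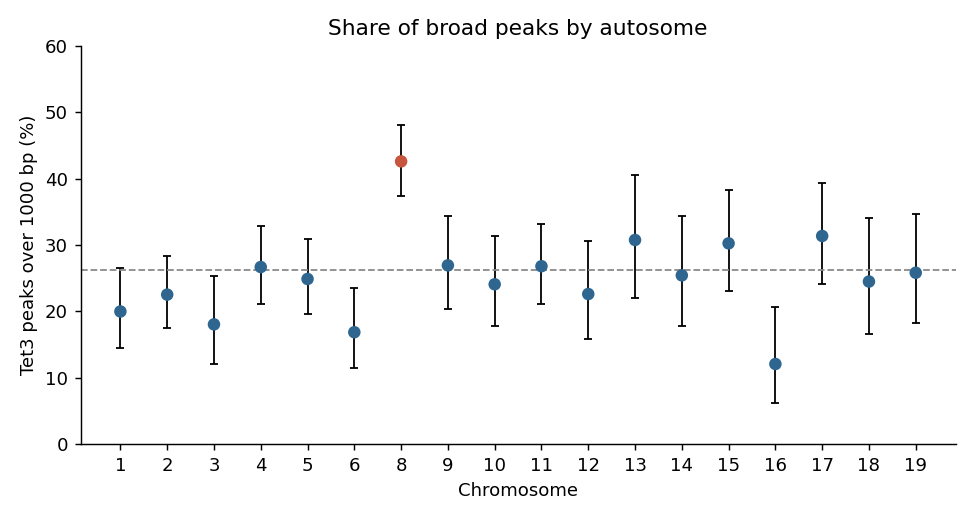
Share of Tet3 peaks wider than 1000 bp (vertical axis, %) on each autosome except 7 (horizontal axis), with exact 95% intervals as bars and the overall share of 26.2% as the dashed line. Chromosome 8, in orange, is at 42.6%, and the other autosomes lie between 12.1% and 31.4%.

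The X chromosome held 15 Tet3 peaks, and 0 of them were broad. By the limit of 3 counts, up to 20% could be broad, and the upper end of the exact interval is 21.8%. The autosomal share would have given 3.95 broad peaks, so the X chromosome differs by few peaks. The Input list had none on X.

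In windows of 5 Mb laid from the start of each chromosome, broad peaks were spread over many windows but unevenly. Of 501 windows, 282 held a broad peak, 191 held narrow peaks only, 10 held broad peaks only, and 28 held neither, 19 of these on the X chromosome. The median window held 1 broad and 4 narrow peaks. Windows with 5 or more broad peaks numbered 48 and contained 46.8% of the broad peaks and 22.4% of the narrow ones. The 11 windows with 10 or more contained 162 broad peaks, 19.95% of them, against 6.96% of narrow peaks, and 4 of the 11 were on chromosome 8. These windows were picked by their broad peaks, so the higher broad percentages follow from the choice. The variance of the count per window was 4.78 times its mean for broad peaks, 3.50 for narrow peaks and 2.40 for Input peaks. The order of broad and narrow peaks rested on chromosome 8: without it the ratios were 3.12 for broad, 3.51 for narrow and 1.08 for Input peaks. The ratio also grows with the number of peaks, so it does not rank the classes by evenness.

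The window with most broad peaks was 70 to 75 Mb on chromosome 8, with 29 broad and 17 narrow peaks and 5 Input peaks. Then came 120 to 125 Mb on the same chromosome with 25 broad and 15 narrow peaks, and 85 to 90 Mb with 17 and 13. In these 3 windows broad peaks outnumbered narrow ones, at 63.0%, 62.5% and 56.7% of Tet3 peaks. The end of chromosome 4, from 150 to 155 Mb, held 14 broad and 22 narrow peaks, and 25 to 30 Mb on chromosome 17 held 13 of each. A window rich in narrow peaks was not always rich in broad ones, as 2 windows chosen after their values were seen show. On chromosome 11, 95 to 100 Mb held 23 narrow peaks and 1 broad peak. The reverse was the start of chromosome 9, from 0 to 5 Mb, where all 10 Tet3 peaks were broad and no Input peak was called.

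Counted over windows, broad and narrow peaks went together. On the 17 autosomes other than 8 the Spearman correlation of their counts was 0.47 over 444 windows, and on chromosome 8 it was 0.72 over 27 windows. The correlation of broad peaks with Input peaks was 0.071 and 0.22 in the same windows. All of these counts depend on how much of a window can be mapped, so they are descriptions. In windows with 15 or more narrow peaks, 34.1% of Tet3 peaks were broad (29.6 to 38.8), against 23.0% (20.4 to 25.8) where there were 3 to 5 narrow peaks. Without chromosome 8 these shares were 25.7% (21.0 to 30.9) and 22.3% (19.6 to 25.1), and their intervals overlapped. In windows with 1 to 2 narrow peaks the share without chromosome 8 was 26.9% (21.4 to 32.9). A rise of the broad share with the number of narrow peaks was therefore not resolved outside chromosome 8. Narrow peaks are part of the total, so a low narrow count raises the broad share by construction, and these classes cannot decide the question.

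**Figure D3:**
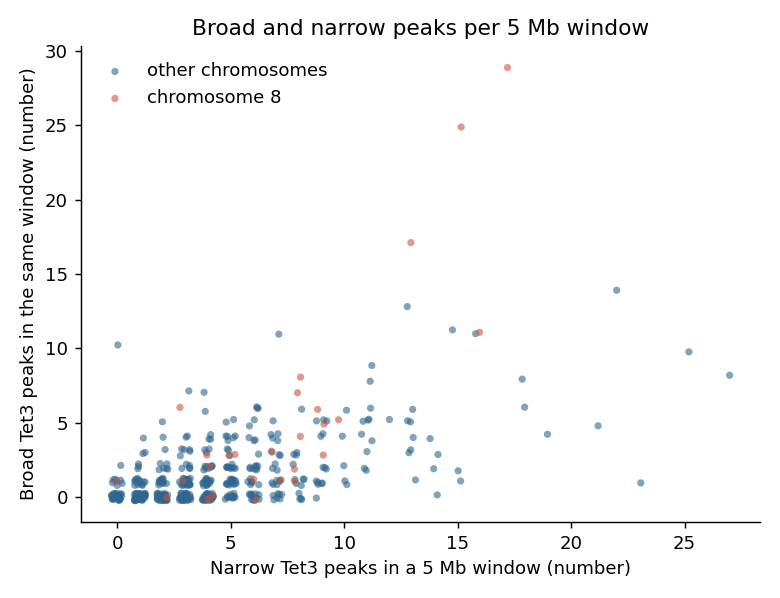
Number of broad Tet3 peaks (vertical axis) against number of narrow Tet3 peaks (horizontal axis) in each of 501 windows of 5 Mb, with points spread slightly at random to part equal values and chromosome 8 in orange. The highest points, with 29, 25 and 17 broad peaks, are windows of chromosome 8.

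Along the autosomes the broad share was highest towards the distal end, the end farthest from position 1. Each autosome was divided into 5 equal parts between its first and last Tet3 peak. In order from the start, the broad share was 23.3%, 22.5%, 24.0%, 26.0% and 32.3%. The last part held 34.4% of broad and 25.7% of narrow peaks, so both classes were most numerous there. Its broad share of 32.3% (29.2 to 35.6) lay above the 24.0% (22.3 to 25.9) of the other 4 parts together, and the last part was the higher one on 14 of 18 autosomes. Without chromosome 8 the values were 29.9% (26.6 to 33.3) and 22.2% (20.4 to 24.1), still with separate intervals.

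Broad peaks lay in more crowded surroundings than narrow peaks. Counting the other Tet3 peaks of any width within 2.5 Mb of a peak's centre, and leaving out the peak itself, a broad peak had a median of 10 (10 to 11) and a narrow peak of 8 (7 to 8). The broad median was higher on 12 of the 18 autosomes and equal on 4, with chromosomes 11 and 13 as the exceptions. On chromosome 8 the medians were 27 and 12, and on chromosome 15 they were 19 and 8. Without chromosome 8 they were 9 (9 to 10) and 7 (7 to 8). Read the other way round, 16.3% (12.4 to 21.0) of peaks with 0 to 2 others around them were broad and 17.2% (14.3 to 20.3) of those with 3 to 5. Where there were 6 to 9 others the share was 28.8% (25.6 to 32.2). It did not go on upwards to 10 to 14 others (26.9%) and 15 to 19 others (26.5%), and was 40.5% (35.9 to 45.2) with 20 or more. Without chromosome 8 the sequence was 16.4%, 17.3%, 28.7%, 25.7%, 25.1% and 32.5%. The rise from the class of 3 to 5 others to that of 6 to 9 thus remained, and the last value was lower. Median scores in the 6 classes differed little, from 62.5 in the emptiest to 67.8 in the most crowded.

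The crowding followed width only in part. Peaks of 500 bp or less had a median of 7 others around them (6 to 7), those over 600 and up to 800 bp had 8 (7 to 8), and those over 800 and up to 1000 bp had 10 (9 to 11). Broad peaks of up to 1200 bp had 9 (8 to 10), those over 1200 and up to 1500 bp had 10 (9 to 11), those over 1500 and up to 2000 bp had 12 (10 to 14), and the 17 peaks over 2500 bp had 27 (14 to 44). The widest narrow peaks thus already had the surroundings of the least wide broad ones, and the line at 1000 bp marks no step. With chromosome 8 left out, peaks from above 800 bp to 2000 bp all had medians of 9, and the climb over that range was no longer seen. Over 2000 bp the median was then 12 in both classes, but with only 16 and 5 peaks and wide intervals (5 to 26 and 1 to 20).

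The nearest other Tet3 peak was closer to broad peaks. Its median distance between centres was 93.2 kb (79.6 to 106) from a broad peak and 158 kb (143 to 176) from a narrow one. The broad median was the smaller on 16 of 18 autosomes, chromosomes 11 and 13 again being the exceptions. Leaving out chromosome 8 gave medians of 106 kb (93.3 to 127) and 171 kb (150 to 184). Within a gap of 100 kb between edges, 52.2% (48.7 to 55.7) of broad peaks and 41.2% (39.2 to 43.3) of narrow peaks had a neighbour. At 50 kb the shares were 37.3% and 30.6%. At shorter range the order changed. Within 10 kb the shares were 16.9% (14.4 to 19.6) and 16.5% (14.96 to 18.05), and within 5 kb both were 13.4%. Within 1 kb it was narrow peaks that more often had a neighbour, 10.2% (8.95 to 11.5) against 7.27% (5.58 to 9.27), although these intervals overlapped slightly. Leaving out chromosome 8 made these shares 9.73% (8.49 to 11.1) for narrow and 6.17% (4.46 to 8.27) for broad peaks, with separate intervals. Spacing this close depends on whether sites were called jointly or apart, so it is not independent of width. With chromosome 8 left out, the shares at 100 kb were 48.3% (44.4 to 52.1) and 39.98% (37.9 to 42.1), and at 50 kb 34.3% (30.7 to 38.0) and 29.6% (27.6 to 31.6), where the intervals overlapped. The closer spacing of broad peaks was thus seen at 100 kb with separate intervals, with and without chromosome 8. At 50 kb the direction was the same in both cases, but the intervals were separate only with chromosome 8 kept. At 10 kb and below closer spacing was not seen. Among peaks of 2000 to 2500 bp, 11 of 28 had a neighbour within 10 kb, 39.3% (21.5 to 59.4). The 11 include peaks of 2321, 2012 and 2009 bp from the start of chromosome 9. Over 2500 bp it was 4 of 17, 23.5% (6.81 to 49.9), so no steady rise with width was seen. Among peaks of 500 bp or less the share was 9.46% (6.48 to 13.2), while all classes between 500 and 2000 bp lay from 14.1% to 18.8%.

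**Figure D4:**
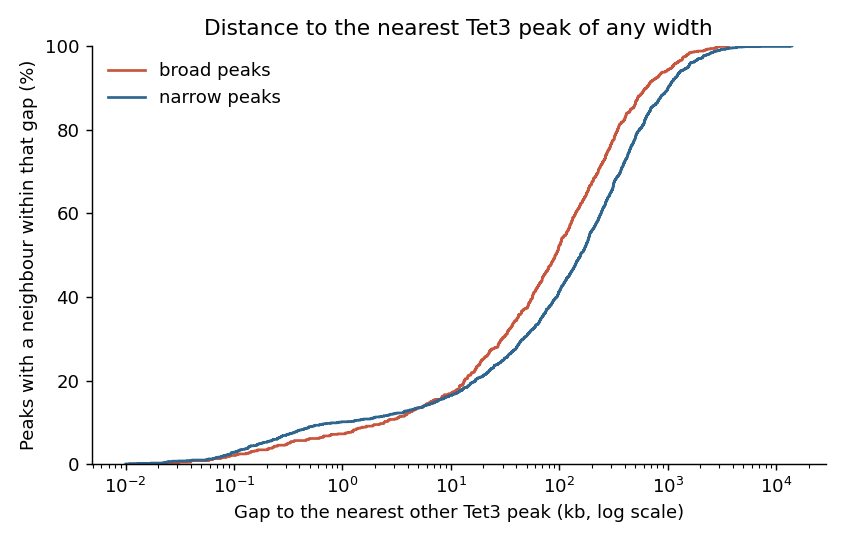
Cumulative share of broad and narrow Tet3 peaks (vertical axis, %) whose nearest other Tet3 peak lies within the gap on the horizontal axis (kb, log scale). The curves cross between 5 and 10 kb: narrow peaks are ahead at 1 kb (10.2% against 7.27%) and broad peaks at 100 kb (52.2% against 41.2%).

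Broad peaks more often had a broad peak as their neighbour than narrow peaks did. The nearest Tet3 peak was itself broad for 33.9% (30.6 to 37.2) of broad peaks and for 23.8% (22.1 to 25.6) of narrow ones. Peaks that are each other's nearest enter these shares from both sides, which the intervals do not allow for. The same holds for the shares with a neighbour within a given gap. Reading along each chromosome, 32.3% (29.1 to 35.6) of broad peaks were followed by a broad peak, against 23.8% (22.1 to 25.7) of narrow peaks. The former share was the higher on 14 of 18 autosomes, the exceptions being chromosomes 12, 15, 16 and 19. On several autosomes the shares were close, in either direction, as on chromosome 17 (31.25% and 30.8%) and chromosome 15 (30.4% and 30.5%). On chromosome 18 the shares were 48.0% and 17.1%, the largest difference, with 25 broad peaks behind the first. On chromosome 8 they were 43.8% and 41.4%, so on the chromosome with most broad peaks the next peak was broad about as often after either kind. The shares without chromosome 8 were 29.8% (26.3 to 33.4) and 22.2% (20.4 to 24.0).

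The difference was largest for close neighbours, but there it rested in part on the 10 consecutive broad peaks at the start of chromosome 9. When the next peak began within 10 kb, it was broad after 36 of 85 broad peaks, 42.4% (31.7 to 53.6), and after 40 of 199 narrow peaks, 20.1% (14.8 to 26.3). For gaps of 10 to 100 kb the shares were 37.8% (31.2 to 44.7) and 30.8% (26.1 to 35.7), for 100 kb to 1 Mb they were 30.4% (25.8 to 35.3) and 25.2% (22.7 to 27.9), and beyond 1 Mb 22.5% (15.6 to 30.7) and 18.1% (15.1 to 21.5). Only the intervals for gaps up to 10 kb were apart. Leaving out the chromosome 9 stretch, a check added after seeing the data, made this 27 of 76 or 35.5% (24.9 to 47.3) after broad peaks and 20.1% (14.8 to 26.3) after narrow ones, with overlapping intervals. Leaving out chromosome 8 as well gave 15 of 52, 28.8% (17.1 to 43.1), and 17.98% (12.6 to 24.4). Counting all neighbours and not only the next one, 47.1% of peaks with centres within 10 kb of a broad peak were broad, against 21.9% around narrow peaks. Between 10 and 100 kb the values were 46.5% and 32.2%, between 5 and 10 Mb they were 28.4% and 28.0%, and between 10 and 20 Mb 31.3% and 27.8%. The chromosome 9 stretch supplied many of the closest: without it the values were 36.9% and 21.9% within 10 kb and 42.1% and 32.2% from 10 to 100 kb. With chromosome 8 left out and the stretch kept, they were 45.7% and 18.8% within 10 kb and 40.9% and 28.1% from 10 to 100 kb. In the same set they were 30.1% and 28.1% from 100 to 500 kb, and 28.4% and 25.2% from 1 to 2.5 Mb. Between these, from 500 to 1000 kb, the order was reversed, with 27.4% around broad and 28.4% around narrow peaks. With both left out they were 30.9% and 18.8% within 10 kb and 33.1% and 28.1% from 10 to 100 kb. Each pair of peaks enters these neighbour counts from both sides, so no interval is given for them.

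**Figure D5:**
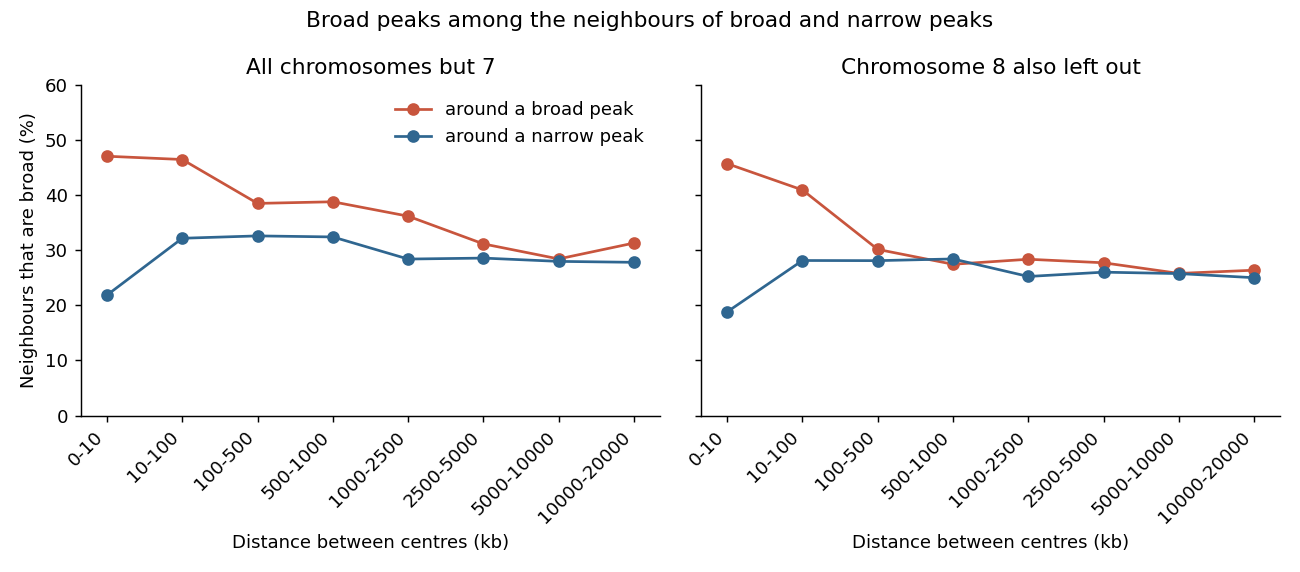
Percentage of neighbouring Tet3 peaks that are broad (vertical axis) by distance between centres in kb (horizontal axis, unequal steps), around broad and around narrow peaks, with chromosome 8 kept on the left and left out on the right. Within 10 kb the values are 47.1% and 21.9% on the left and 45.7% and 18.8% on the right, and from 5000 to 10000 kb the curves differ by less than 1 percentage point on either side. Without the start of chromosome 9 the values within 10 kb around broad peaks are 36.9% on the left and 30.9% on the right.

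Consecutive broad peaks with gaps of at most 100 kb and no narrow peak between them formed 79 runs with 194 broad peaks, 23.9% of the broad peaks. Narrow peaks, which are more numerous, formed 313 such runs with 733 peaks, 32.1% of them. Of the broad runs 59 were pairs, 14 held 3 peaks and 6 held 4 or more. All 18 autosomes had a run, and 23 runs were on chromosome 8. The longest opened chromosome 9, at 2999835 to 3036760, and comprised 10 broad peaks 1190 to 2321 bp wide in 36.9 kb. The next had 6 broad peaks, 1457 to 2450 bp wide, on chromosome 8 at 73297976 to 73379810. There were 5 at 87519099 to 87636591 and 5 at 125094457 to 125307747, both on chromosome 8, the latter with peaks of up to 2627 bp. A run of 4 lay on chromosome 12 at 109458085 to 109610645. The chromosome 9 run differed from the others in its number of peaks, and it packed these 10 into less than the 81.8 kb of the run of 6. Compactness was not particular to it, since a pair on chromosome 17, at 24641508 to 24644223, spanned 2.716 kb.

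Some broad peaks nearly touched. In the closest pair, on chromosome 8, a peak at 73376044 to 73377867 was followed after 40 bp by one at 73377908 to 73379810. The next pairs by gap were at 123091004 and 123092242 on chromosome 8 (59 bp), at 3604382 and 3606760 on chromosome 8 (64 bp), at 60522323 and 60524089 on chromosome 11 (85 bp) and at 76002144 and 76003801 on chromosome 15 (165 bp), giving the start of each peak. In all, 12 pairs of broad peaks had a gap of 1 kb or less, and 5 of the 10 closest were on chromosome 8. Such pairs were reported separately by the caller, and joining them would give fewer and wider regions.

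At the other extreme, the most isolated broad peak was on chromosome 16 at 72898718 to 72899779, 1062 bp wide, with no other Tet3 peak for 3642 kb. Chromosome 1 had one at 100091179 to 100092304 that was 2955 kb from the nearest, and for one on chromosome 14, at 96202282 to 96203416, this was 2859 kb. All 3 were among the less wide broad peaks, at 1062 to 1135 bp. Such isolation was rare, as 94.3% of broad peaks had another Tet3 peak within 1 Mb, against 89.8% of narrow ones.

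Set against the Input list, few broad peaks coincided with an Input peak. Only 2 of 812 overlapped one by at least 1 bp, 0.246% (0.0298 to 0.887), and 0 of 2284 narrow peaks did, which by the limit of 3 counts allows a share of up to 0.131% (exact upper bound 0.161%). These 2 were the peak of 1489 bp on chromosome 6 at 146276331 to 146277819 and that of 1234 bp on chromosome 17 at 28973444 to 28974677. Both had low scores, 50.65 and 55.91, and it is not known whether Input served as the control of the Tet3 call, which would keep the overlap low. A further 4 broad peaks had an Input peak less than 10 kb away. They were on chromosome 8 at 97851006 to 97853008 (0.327 kb away) and 125243030 to 125245324 (8.734 kb), on chromosome 17 at 56566206 to 56567519 (0.145 kb) and, on chromosome 19, at 9950730 to 9951949 (6.905 kb). Within 10 kb the shares were thus 0.739% of broad and 0.701% of narrow peaks.

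At 100 kb the shares near an Input peak were 6.77% (5.14 to 8.73) for broad and 4.25% (3.46 to 5.16) for narrow peaks, with intervals that just overlapped. The intervals overlapped widely when chromosome 8 and the rest were taken separately. On chromosome 8, 25.2% (18.4 to 33.0) of broad and 23.2% (17.5 to 29.7) of narrow peaks had an Input peak within 100 kb. On the remaining chromosomes the shares were 2.71% (1.61 to 4.24) and 2.44% (1.83 to 3.20). Both broad peaks and Input peaks were more frequent on chromosome 8, as described above.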

How the data were processed

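Peaks were analysed from 1 Tet3 ChIP and 1 Input library of mouse neural progenitor cells. Per the labels' protocols, a Covaris kit was used for shearing and a SOLiD instrument for sequencing. Bowtie, MACS and the build mm9 are named, per the submitters' processing notes; their versions, thresholds, duplicate handling and the control of each call are unknown here (not given in the sources used here). The deposited files hold start, end, an identifier of the form MACS writes and a score per peak, which is the authors' own value, undefined in the files and used only as a description. Read depth is unknown.

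Width is end minus start, and starts are printed counted from 1. Shares, medians and intervals were computed with scipy 1.17.1, pandas 2.3.3 and numpy 2.4.6 under Python 3.11.15, and plots with matplotlib 3.10.9. Densities per Mb use the stretch between the outermost peaks of a chromosome, Tet3 or Input, as its length. Neighbour counts and joins were tested on simulated lists. Chromosome 7 was left out throughout. Regions named are the 10 widest broad peaks, the widest of each chromosome, those next to the threshold, the 5 windows with most broad peaks, the 5 longest runs and closest pairs, the 3 most isolated, and those within 10 kb of an Input peak. The regions, rules and alternatives were chosen with earlier results of these lists known. Genes, promoters and sequence are not reported, since the gene table at hand is of another build.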

Additional observations from a re-analysis of the deposited data

How the results depend on the processing

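No paired analysis was possible because there is only 1 library per group. Of 109 alternative values, 66 stayed within the interval of the reported value, or within 1.5 times of a count. Shares of broad peaks move with the width by construction. Over 800, 1200 and 1500 bp there were 1306, 552 and 225 broad peaks, or 42.2%, 17.8% and 7.27% of Tet3 peaks. On chromosome 8 these shares were 57.1%, 33.9% and 20.6%, and on the other autosomes 40.5%, 15.9% and 5.63%. A broad peak was followed by a broad one in 45.1%, 24.8% and 16.1% of cases and a narrow peak in 39.8%, 16.2% and 6.48%. Over 1500 bp, broad peaks had a median of 13 others around them, a nearest neighbour at 62.4 kb and an Input peak within 100 kb in 9.33% of cases. Without chromosome 8 the broad share was 24.2%, 9 others lay around a broad peak, and 2.71% of broad and 2.44% of narrow peaks were near an Input peak. Within 0.5 Mb on either side, broad and narrow peaks had 3 and 2 others around them, with touching intervals, and within 5 Mb 19 and 15. A neighbour lay within 5 kb of 13.4% of broad and 13.4% of narrow peaks, and within 50 kb of 37.3% and 30.6%. An Input peak lay within 10 kb of 0.739% and 0.701%, and overlapped 0.246% and 0%. Joining Tet3 peaks with gaps of at most 1 kb, added after seeing the data, gave a broad share of 30.3%, or 28.4% on the autosomes other than 8. Nearest distances were then 110 kb and 192 kb for broad and narrow regions, 11.8% and 7.02% had a neighbour within 10 kb, and 28.0% of narrow regions were followed by a broad one. Broad peaks had the smaller nearest distance in 9 of 9 settings and were more often followed by a broad peak in 8 of 8, each with separate intervals. They had more peaks around them in 10 of 10 settings, with separate intervals in 9. Each count of settings here includes the reported one and the joined peaks. Joining takes close narrow peaks out of the narrow class by construction, which bears on the nearest distances as well. The share with a neighbour within 10 kb had no steady order: it was the higher one for broad peaks in 5 of 8 settings, with separate intervals in 1, the joined peaks, where joining removes close narrow pairs by construction. At 50 kb it was higher for broad peaks with separate intervals when chromosome 8 was kept. Without chromosome 8 it was 34.3% against 29.6%, with overlapping intervals. The share near an Input peak was higher for broad peaks in 10 of 10 settings, with separate intervals in 2, over 800 bp (6.43% against 3.80%) and over 1500 bp (9.33% against 4.56%). Keeping chromosome 7, leaving out stretches on chromosomes 9, 2 and 17, and the choice of edges or centres moved no value out of its interval. The stretches were the run at the start of chromosome 9, the peaks at 98502217 to 98507665 on chromosome 2, and the widest peak, on chromosome 17. Without these stretches 15.6% of broad and 16.4% of narrow peaks had a neighbour within 10 kb, the reverse of the order with them.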

Other observations

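The neighbours of narrow peaks at very short range bear on how broad peaks are counted. When Tet3 peaks with gaps of at most 1 kb were joined, a step chosen after the data were seen, 291 of the 3096 peaks fell into 140 joined regions. Of these regions 94 were made of narrow peaks only, and all 94 were then wider than 1000 bp, with a median of 1580.5 bp. The 812 broad peaks became 799 regions, so the joined list held 893 broad regions of 2945. The largest region so formed measured 7867 bp, and up to 4 peaks were joined into one. Chromosome 8 held 17.02% of the broad regions after joining and 18.1% of broad peaks before it. By construction the join takes the 232 narrow peaks with a neighbour within 1 kb out of the narrow class, so spacing at short range is not comparable between broad and narrow regions afterwards.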
